A study of Mus musculus with 4 samples.

Results

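The histone genes examined here are the protein-coding genes whose GENCODE M21 symbol begins with Hist1h to Hist4h, H2af, H3f3 or H1f. Of 82 such genes in that annotation, 79 have an entry in the deposited tables, out of 43346 genes there, and the 3 without one are Hist1h2bh, Hist1h2bm and Hist2h2bb. The symbol divides them into 64 clustered genes (Hist) and 15 replacement variant genes (H2af, H3f3 and H1f). The clustered genes encode 6 linker histones H1, 18 histones H2A, 15 H2B, 12 H3 and 13 H4, and 52 of them lie on chromosome 13, 9 on chromosome 3, 2 on chromosome 11 and 1 on chromosome 6. The genes were picked by name and not by a measured value, but earlier results of these data were known at the time.

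RNA was measured in 2 libraries of monocytes and 2 of neutrophils, all isolated from blood of C57BL6 adult mice, with no treatment, transgene or mutation named in the labels. After Ficoll separation, monocytes were sorted as Gr-1+Mac-1+ cells of the mononuclear layer, whereas neutrophils were taken from the pellet once red cells had been lysed, with no sort named. The study's methods describe the sorted monocyte surface as Ly6g- and CD11b+, so the markers of the gate differ between the sources. The study's methods allow replicates to be separate groups of mice or sorter aliquots processed apart, and p-values measure the spread between these libraries, which may be technical in part. The libraries were made from total RNA depleted of ribosomal RNA and primed with random hexamers, so RNA without a poly-A tail was kept.

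Histones package DNA into nucleosomes. The clustered genes are the replication-dependent ones: their RNA is made mainly in S phase, usually has no intron, and ends after a short hairpin, the histone stem-loop, in place of a poly-A tail. Stem-loop binding protein holds this hairpin, and U7 small nuclear RNA guides the cut behind it. Replacement variants such as H3.3 and H2A.Z are made throughout the cell cycle from ordinary polyadenylated mRNA and supply histones to cells that no longer divide, as circulating monocytes and neutrophils are. H2afx, grouped by its symbol with the replacement variants, is known to be expressed in both manners.

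The stem-loops are shown because they mark which RNAs can be processed without a poly-A tail. The search, on the RNA's own strand and behind the coding sequence, asked for the histone stem-loop motif of 16 bases: a stem of 6 bases that starts with GG and ends with T, a loop of 4 bases with T in its second place, and a second arm that pairs with the first. A match was present in GENCODE M21 transcripts of 42 of 64 clustered genes (65.6%), and in 42 of the 52 whose annotated transcript goes past the coding sequence at all. Only some stem-loops are printed below, from the M21 transcripts (GRCm38/mm10), with the 16 bases of the stem-loop in capitals. The first 2 belong to genes that were higher in neutrophils, the next 2 to a pair of H2A copies, and the last to H2afx.
Hist1h2be, chr13:23585526-23585551, minus strand: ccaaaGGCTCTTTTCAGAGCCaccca
Hist2h4, chr3:96262934-96262959, minus strand: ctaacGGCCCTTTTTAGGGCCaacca
Hist2h2aa1, chr3:96246027-96246052, plus strand: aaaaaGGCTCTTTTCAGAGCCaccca
Hist2h2aa2, chr3:96239779-96239804, minus strand: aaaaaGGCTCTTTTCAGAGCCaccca
H2afx, chr9:44335235-44335260, plus strand: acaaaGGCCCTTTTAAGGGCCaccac
The windows of the 2 H2A copies have the same letters. The commonest of 7 distinct stem-loops, the one in Hist1h2be, was present in 24 of the 43 genes with a match. In the clustered genes the stem-loop began between 21 and 58 bases behind the stop codon, with a median of 31.5.

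Among replacement variants the stem-loop was present only in H2afx, 1 of 15 genes. Within the last 100 bases of a transcript it was found in 21 of 64 clustered genes (32.8%) and 0 of 15 replacement variants, against 31 of 21620 protein-coding genes (0.143%). The poly-A signal AATAAA had the other distribution, with 16 of 64 clustered genes (25%), 10 of 15 replacement variants (66.7%) and 67.7% of all protein-coding genes carrying it in the last 100 bases. The 2 signals are not exclusive in the annotation: 12 of 64 clustered genes had a stem-loop in a transcript and AATAAA near a transcript's end. Transcript ends are those of M21, and several gene models in the deposited tables are shorter or longer than these.

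The libraries held 20549572 to 26076261 expected counts. An expected count is the number of reads that RSEM assigned to a gene, with reads that fit several genes shared among them, and CPM below is that number per 1000000 expected counts of the library. Defining monocyte markers summed to 11039 to 11405 CPM in monocytes, against 1591 to 1656 CPM in neutrophils, and 9 of 10 were higher in monocytes. Defining neutrophil markers summed to 332 to 361 CPM in monocytes, against 7786 to 7971 CPM in neutrophils, and 9 of 10 were higher in neutrophils. Ly6g was at 0 in both monocyte libraries. Markers of other blood cells moved with the groups as well. The 12 natural killer cell markers were all higher in monocytes (2981 to 2991 CPM, against 40.3 to 42.4 CPM in neutrophils), and the 12 B cell markers were all higher in neutrophils (775 to 902 CPM in monocytes, against 5604 to 5784 CPM in neutrophils). Of 12 T cell markers 2 were higher in monocytes and 8 higher in neutrophils (125 to 149 CPM in monocytes, against 185 to 196 CPM in neutrophils), and of 12 platelet and megakaryocyte markers 0 were higher in monocytes and 7 higher in neutrophils (56.8 to 63.3 CPM in monocytes, against 125 to 142 CPM in neutrophils). Of 10 tested red cell markers 1 was higher in monocytes and 5 higher in neutrophils (6303 to 6700 CPM in monocytes, against 8190 to 8756 CPM in neutrophils). Of 9 tested basophil and eosinophil markers 6 were higher in monocytes and 1 higher in neutrophils, while their sums overlapped (400.2 to 412 CPM in monocytes, against 396 to 409 CPM in neutrophils). The part of these cells in the histone values below was not tested, and fewer cells of a type cannot be told apart from less RNA per cell in bulk samples.

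A count was present in at least 1 library for 69 histone genes, 61 clustered and 8 replacement, and in every library for 55. The 10 genes with no count in any library were the clustered Hist1h2aa, Hist1h2ba and Hist2h3c1 and the replacement genes H1fnt, H1foo, H1fx, H2afb1, H2afb2, H2afb3 and H2afy2. A count of 0 allows up to 3 counts, that is 0.115 to 0.117 CPM in a monocyte library and 0.139 to 0.146 CPM in a neutrophil library. PCR reads carry no molecular identifiers here, so this limit covers counting error only. Hist2h3c1 lies over its whole length inside the exons of Gm20634, a noncoding transcript of the same strand, so its 0 concerns the assignment of reads as well as the RNA.

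Summed over all 79 genes, histone RNA took 4404 and 4077 CPM in monocytes, against 3184 and 3257 CPM in neutrophils. The 2 classes ran in opposite directions. Replacement variants took 3091 and 2945 CPM in monocytes, against 1723 and 1687 CPM in neutrophils, while clustered genes took 1314 and 1132 CPM in monocytes, against 1462 and 1570 CPM in neutrophils. The clustered share of all histone counts was therefore 28.8% ± 1.45 in monocytes and 47.1% ± 1.64 in neutrophils (SD, n = 2 each), and the libraries of the groups did not overlap. Per kilobase of effective length, which sets short clustered RNAs and longer replacement RNAs on one scale, the share was 49.3% ± 1.59 in monocytes and 64.3% ± 1.29 in neutrophils. No test was made on these sums.

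**Figure D1:**
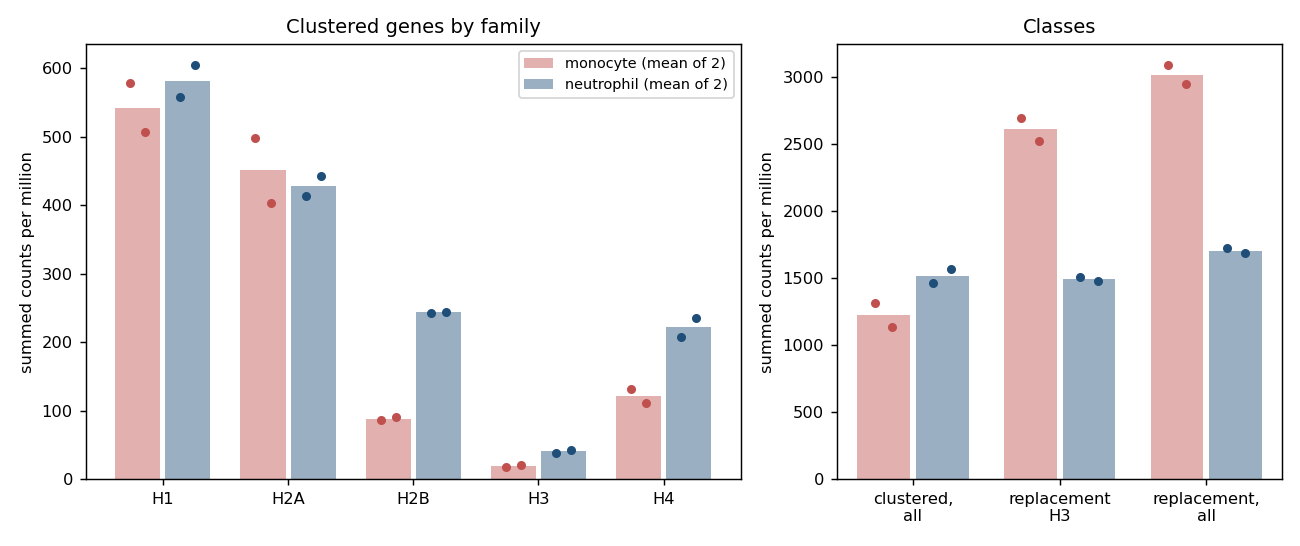
Summed CPM of the clustered genes by histone family (left) and of the classes (right), with bars at the mean of 2 libraries and points at each library, monocytes left of neutrophils. Clustered H2B took 86.5 and 90.4 CPM in monocytes, against 243 and 244 CPM in neutrophils, while H1 and H2A overlapped.

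In 3 of the 5 clustered families both neutrophil libraries stood above both monocyte libraries. Clustered H2B genes summed to 88.4 ± 2.81 CPM in monocytes and 243 ± 0.357 CPM in neutrophils, a ratio of 2.75 neutrophil over monocyte. For clustered H4 genes the sums were 122 ± 14.1 CPM in monocytes and 222 ± 19.9 CPM in neutrophils. Clustered H3 genes summed to 19.4 ± 1.73 CPM in monocytes, against 41.2 ± 2.73 CPM in neutrophils. This sum holds no read assigned to Gm20634, whose exons cover all of the H3 gene Hist2h3c1 on the same strand. Gm20634 was at 7.50 and 6.09 CPM in monocytes, against 45.7 and 42.0 CPM in neutrophils. Sums of the linker histones overlapped, with 579 and 506 CPM in monocytes, against 557 and 605 CPM in neutrophils, and so did those of H2A, with 498 and 403 CPM in monocytes, against 414 and 443 CPM in neutrophils. Per kilobase, clustered H2A summed to 1161 ± 157 CPM and clustered H2B to 196 ± 5.73 CPM in monocytes. In neutrophils clustered H2A summed to 1119 ± 51.8 CPM and clustered H2B to 351 ± 23.2 CPM. These sums leave out the replacement variants and depend on the model lengths. Also missing are Hist1h2bh, Hist1h2bm and Hist2h2bb, the genes without an entry, which are all H2B. The sums are therefore no measure of the equal number of H2A, H2B, H3 and H4 in nucleosomes.

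Monocytes were compared with neutrophils gene by gene with edgeR's quasi-likelihood test on all 14309 genes that passed a filter on low counts, and a gene was called at a Benjamini-Hochberg adjusted p under 0.05. Of the 79 histone genes 63 were tested, and 16 had too few counts. Of 55 tested clustered genes 1 was called higher in monocytes (1.82%) and 11 higher in neutrophils (20%), beside 20.7% and 21.6% of all tested genes. The share called higher in neutrophils was thus near that of all genes, and the share called higher in monocytes below it. Of 8 tested replacement variants 5 were called higher in monocytes and 1, H2afx, higher in neutrophils. The median log2 fold change, monocyte over neutrophil, was -0.48 in clustered genes, 0.50 in replacement variants and -0.06 in all tested genes.

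**Figure D2:**
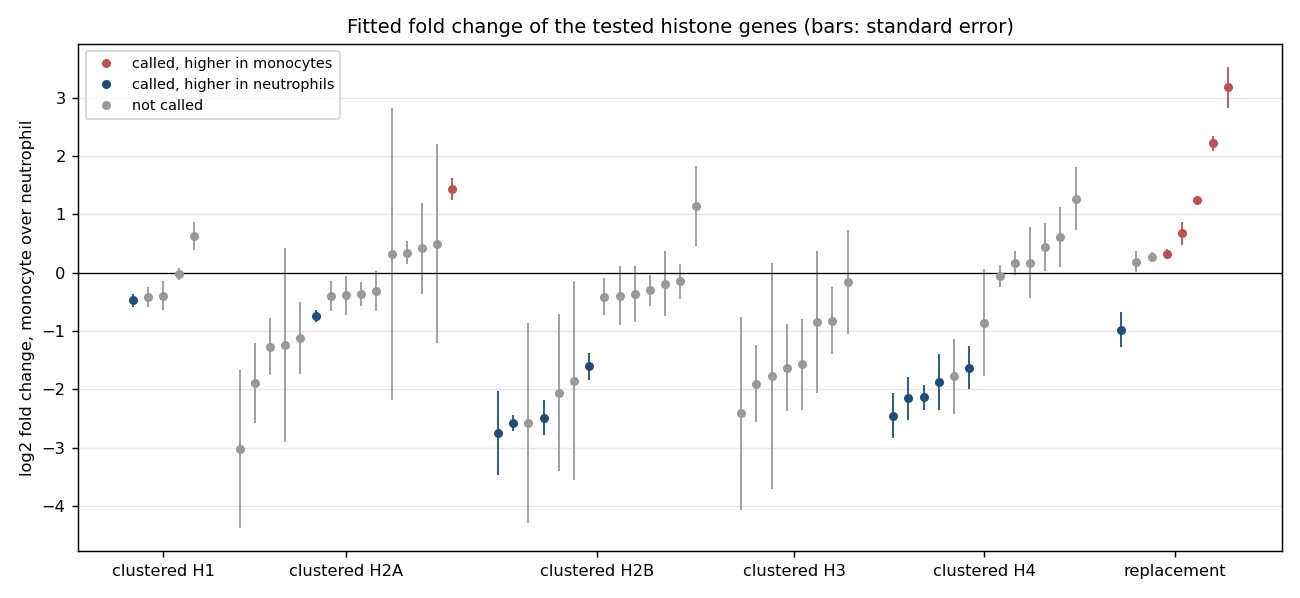
Fitted log2 fold change, monocyte over neutrophil, of the 63 tested histone genes, ordered within each family, with bars for 1 standard error and colour for the call. Among clustered genes 11 were called below 0 and 1 above it, and among replacement variants 5 were called above 0 and 1 below it.

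By the values themselves, both neutrophil libraries stood above both monocyte libraries in 30 of 55 tested clustered genes (54.5%, beside 39.9% of all tested genes), and both monocyte libraries stood above both neutrophil libraries in 6 (10.9%, beside 35.2%). In the replacement variants the second pattern held for 6 of 8. These counts were added after the values were seen. Many clustered genes without a call had a wide error.

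H3f3b and H3f3a, which both encode the replacement histone H3.3, had the highest levels of all histone genes per kilobase in monocytes and in neutrophils. H3f3b was at 1663 and 1620 CPM in monocytes, against 702 and 680 CPM in neutrophils, a log2 fold change of 1.25 ± 0.07 (SE, adjusted p = 9.79e-05, edgeR). H3f3a was at 1033 and 902 CPM in monocytes, against 805 and 802 CPM in neutrophils. Its 2 groups did not overlap, yet the log2 fold change of 0.27 ± 0.08 missed the threshold (adjusted p = 0.0503, edgeR), which it passed under 7 of the alternatives tried. Per kilobase H3f3a led in both cell types, at 1062 ± 127 CPM in monocytes, against 842 ± 21 CPM in neutrophils, and H3f3b stood at 940 ± 25.8 CPM in monocytes, against 498 ± 4.84 CPM in neutrophils. Exons of H3f3a overlap the antisense genes H3f3aos and Gm17275 on the other strand in M21. Whether counting used the strand is not stated in the labels or methods.

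H2afz encodes H2A.Z, the variant found beside active promoters and exchanged into nucleosomes by the Srcap and Ep400 complexes. It was at 152 and 184 CPM in monocytes, against 35.7 and 36.3 CPM in neutrophils, and was 4.65-fold higher in monocytes (log2 2.22 ± 0.13, adjusted p = 0.000123, edgeR). H2afv, which encodes a second form of H2A.Z, gave a smaller difference, with 20.6 and 17.9 CPM in monocytes, against 11.6 and 12.5 CPM in neutrophils (log2 0.68 ± 0.20, adjusted p = 0.0390, edgeR). That call did not survive a correction for model length. RSEM weighted the H2afv models to 1633 and 1218 bases in monocytes, against 812 and 936 bases in neutrophils, and with effective length as an offset the log2 fold change was -0.13 (adjusted p = 0.720, edgeR). Leaving out neutrophil replicate 1 or neutrophil replicate 2 also ended it (adjusted p = 0.334 and 0.228).

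H1f0 encodes H1.0, the linker histone that accumulates in resting and differentiated cells. It showed the highest fold of the called histone genes, with 35.3 and 32.0 CPM in monocytes, against 4.99 and 2.43 CPM in neutrophils (9.03-fold, log2 3.17 ± 0.35, adjusted p = 0.00119, edgeR). H2afy encodes macroH2A1, a variant with a large domain behind its histone fold. It was at 150 and 156 CPM in monocytes, against 123 and 122 CPM in neutrophils (log2 0.32 ± 0.08, adjusted p = 0.0251, edgeR), and lost the call with the length offset (log2 0.16, adjusted p = 0.286) and without neutrophil replicate 1 (0.214) or neutrophil replicate 2 (0.222). H2afj, an H2A variant known in humans to gather in senescent cells, overlapped between the groups, with 32.1 and 29.4 CPM in monocytes, against 30.9 and 23.1 CPM in neutrophils.

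H2afx encodes H2A.X, the variant that is phosphorylated beside DNA double-strand breaks. It ran with the clustered genes, at 4.68 and 4.4 CPM in monocytes, against 9.49 and 8.38 CPM in neutrophils (log2 -0.98 ± 0.30, adjusted p = 0.0468, edgeR). The groups did not overlap, but the call was near the threshold and was absent by DESeq2 (adjusted p = 0.0520) and without neutrophil replicate 1 (0.390) or neutrophil replicate 2 (0.263). Moving H2afx into the clustered class left that class's share of histone counts at 28.9% in monocytes and 47.3% in neutrophils.

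**Figure D3:**
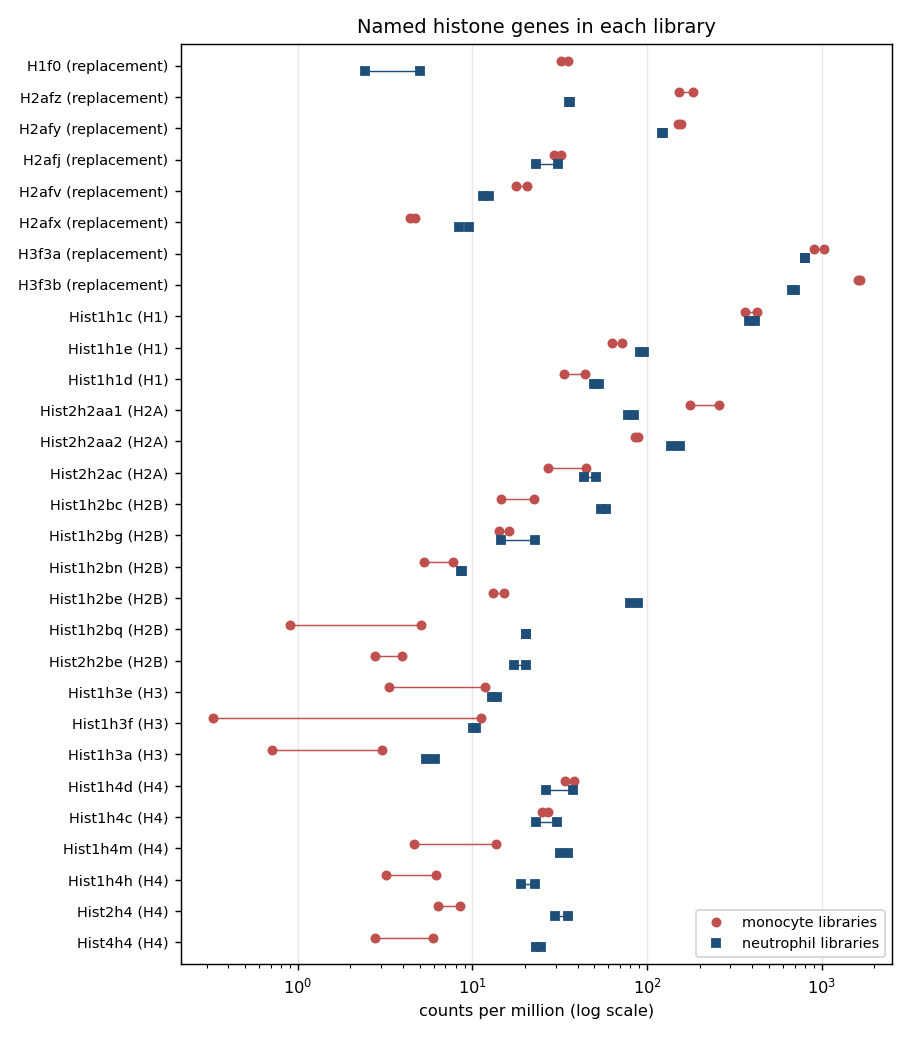
CPM (log scale) of 29 named histone genes in each library, monocytes above neutrophils in each row, with a line joining the 2 libraries of a group. H3f3b, H2afz and H1f0 stand to the right in monocytes, Hist1h2be, Hist2h2be, Hist2h4 and Hist4h4 to the right in neutrophils, and Hist1h3f spans 11.2 and 0.328 CPM within monocytes alone.

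Of the 5 tested clustered linker histones 0 were called higher in monocytes and 1 higher in neutrophils (20%, beside 21.6% of all tested genes). Hist1h1c, encoding H1.2, had the highest level per kilobase of the clustered linker histones in both cell types, with 424 and 366 CPM in monocytes, against 385 and 417 CPM in neutrophils (log2 -0.02 ± 0.10, adjusted p = 0.879, edgeR). Hist1h1e, encoding H1.4, was the one called linker histone of the cluster, at 72.3 and 62.7 CPM in monocytes, against 90.8 and 96.7 CPM in neutrophils (log2 -0.48 ± 0.11, adjusted p = 0.0216, edgeR). It lost the call with the length offset (adjusted p = 0.0526) and without neutrophil replicate 1 (0.0558) or neutrophil replicate 2 (0.118). Hist1h1d, encoding H1.3, was at 43.9 and 33.3 CPM in monocytes, against 49.4 and 53.2 CPM in neutrophils, with no call (adjusted p = 0.103, edgeR). Hist1h1b, encoding H1.5 and named after its values were seen, ran the other way without overlap, at 24.1 and 33.8 CPM in monocytes, against 16.4 and 21.1 CPM in neutrophils (log2 0.63 ± 0.24, adjusted p = 0.0844, edgeR). It was called without monocyte replicate 1 (0.00107) and with no filter on low counts (0.0358).

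Clustered H2B gave the most negative called folds. Hist1h2be was at 15.1 and 13.2 CPM in monocytes, against 89.1 and 79.7 CPM in neutrophils, and fell by 2.58 ± 0.14 on the log2 scale (adjusted p = 0.000115, edgeR). Hist2h2be was at 2.76 and 3.95 CPM in monocytes, against 20.3 and 17.3 CPM in neutrophils, and fell by 2.48 ± 0.29 (adjusted p = 0.00153, edgeR). These genes were 5.98-fold and 5.60-fold higher in neutrophils with no overlap, and both calls stood without any one library. Hist1h2bc was at 14.6 and 22.5 CPM in monocytes, against 54.8 and 58.1 CPM in neutrophils (log2 -1.60 ± 0.23, adjusted p = 0.00314, edgeR). Other H2B genes of the same cluster did not follow: Hist1h2bg was at 14.2 and 16.1 CPM in monocytes, against 14.6 and 22.8 CPM in neutrophils, and Hist1h2bn at 7.74 and 5.28 CPM in monocytes, against 8.75 and 8.60 CPM in neutrophils, with no call for either. In M21 the exons of Hist1h2be reach over 496 bases of Hist1h1e on the same strand. The deposited Hist1h1e model has 748 bases, against 1930 exonic bases in M21. The posterior SD was at most 0.223% of the posterior mean count for Hist1h1e and 1.74% for Hist1h2be. It covers only doubt between deposited models, so the part of Hist1h1e RNA in the Hist1h2be count was not tested.

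Of the 13 clustered H4 genes 5 were called and all 5 were higher in neutrophils (38.5%, beside 21.6% of all tested genes). Hist4h4 was at 5.94 and 2.78 CPM in monocytes, against 23.1 and 24.6 CPM in neutrophils (log2 -2.45 ± 0.38, adjusted p = 0.00445, edgeR). Hist1h4h was at 3.21 and 6.15 CPM in monocytes, against 18.9 and 22.8 CPM in neutrophils (log2 -2.15 ± 0.36, adjusted p = 0.00598, edgeR), and Hist2h4 at 8.44 and 6.30 CPM in monocytes, against 35.1 and 29.7 CPM in neutrophils (log2 -2.14 ± 0.22, adjusted p = 0.000934, edgeR). In each of these 3 the groups were far apart. The H4 genes with the greatest levels per kilobase together with Hist1h4m, namely Hist1h4d and Hist1h4c, overlapped: Hist1h4d had 33.9 and 38.3 CPM in monocytes, against 26.4 and 37.8 CPM in neutrophils, and Hist1h4c had 26.9 and 24.9 CPM in monocytes, against 23.1 and 30.7 CPM in neutrophils. So the H4 genes did not move as a block.

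Of the 8 tested clustered H3 genes 0 were called by edgeR, 1 by DESeq2 and 3 by limma, and 1 had an unadjusted p under 0.05 by edgeR, with a family median log2 fold change of -1.60. Hist1h3e was at 3.33 and 11.8 CPM in monocytes, against 13.8 and 12.9 CPM in neutrophils, and Hist1h3a at 0.708 and 3.02 CPM in monocytes, against 5.42 and 6.10 CPM in neutrophils. Neither pair of groups overlapped. Hist1h3f was at 11.2 and 0.328 CPM in monocytes, against 10.5 and 10.1 CPM in neutrophils, so 1 monocyte library was near the neutrophils and the other held almost no read. All clustered H3 genes together reached 38.8 ± 9.62 CPM per kilobase in monocytes and 84.4 ± 11.9 CPM in neutrophils. H3f3a and H3f3b together reached 2002 ± 153 CPM per kilobase in monocytes and 1340 ± 16.2 CPM in neutrophils. The clustered sum leaves out reads assigned to Gm20634, whose exons cover all of Hist2h3c1, and their part was not tested.

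The clustered genes were also divided by the length of their deposited model, after the values were seen. In 10 the model was over 1000 bases in every library, and 3 of these, Hist2h2be, Hist1h2bq and Hist1h2br, had no stem-loop match in any M21 transcript. Of the 9 tested, 5 were called higher in neutrophils (55.6%, beside 21.6% of all tested genes), with a median log2 fold change of -2.41. This median is the value of Hist2h3c2, with 16.5 and 0 counts in monocytes, against 39.7 and 30.3 in neutrophils. Of 46 tested genes with shorter models 6 were called higher in neutrophils (13%, below the 21.6% of all tested genes), with a median of -0.41. The 5 were Hist1h2be, Hist1h2bq, Hist2h2be, Hist2h4 and Hist4h4. The other 4, not called, were Hist1h1c (1560 bases, log2 -0.02), Hist3h2a (2146 bases, -0.37), Hist1h2br (1256 bases, -0.37) and Hist2h3c2 (1020 bases, -2.41 ± 1.65). Folds of called genes interleaved, as Hist1h4h with a model of 473 bases stood at -2.15 and Hist2h4 at -2.14. Grouped by the annotation instead, 5 of 14 tested clustered genes with AATAAA near a transcript end were called higher in neutrophils (35.7%). Without it 6 of 41 were (14.6%), beside 21.6% of all tested genes. Since the tables give 1 value per gene, reads that end at the stem-loop and reads beyond it cannot be told apart.

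**Figure D4:**
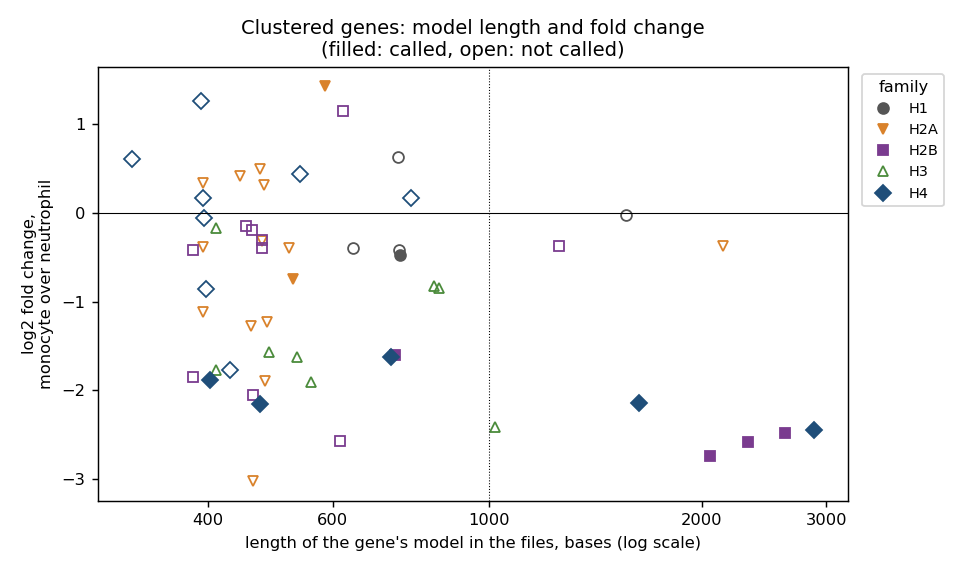
Length of each clustered gene's model in the deposited tables (mean over the libraries, log scale) against its log2 fold change, monocyte over neutrophil, by family, with called genes filled. Right of the dotted line at 1000 bases lie 9 tested genes, of which 5 are called higher in neutrophils (55.6%, beside 21.6% of all tested genes). Hist1h1c, Hist1h2br and Hist3h2a, at -0.02, -0.37 and -0.37, are not called.

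Reads of near-identical histone genes cannot be placed with certainty, and RSEM states this as a posterior standard deviation of the count. Its ratio to the posterior mean count passed 10% in at least 1 library for 21 of 55 tested clustered genes (38.2%) and for 0 of 8 tested replacement variants, beside 5.06% of all tested genes. A posterior SD of 0 in every library, meaning no doubt on any read, was given for 82.4% of all tested genes but for 9.09% of clustered genes. The coding sequences of 5 pairs of clustered genes are the same base for base: Hist2h2aa1 with Hist2h2aa2, Hist1h2ao with Hist1h2ap, Hist1h2bq with Hist1h2br, Hist1h4m with Hist1h4n, and Hist2h3c1 with Hist2h3c2.

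The H2A pair Hist2h2aa1 and Hist2h2aa2 held the clustered gene with the highest level per kilobase in each cell type, Hist2h2aa1 in monocytes (524 ± 154 CPM) and Hist2h2aa2 in neutrophils (398 ± 26.8 CPM), and was called in both directions. Hist2h2aa1 had 6775 and 4489 expected counts in monocytes, against 1824 and 1588 in neutrophils (log2 1.43 ± 0.19, adjusted p = 0.00233, edgeR). Hist2h2aa2 had 2305 and 2191 in monocytes, against 2974 and 3162 in neutrophils (log2 -0.74 ± 0.10, adjusted p = 0.00241, edgeR). Their posterior SDs were alike library by library: 152 and 131 in monocytes, against 95.5 and 79.2 in neutrophils, for Hist2h2aa1, and 152 and 131 in monocytes, against 96.3 and 81.6 in neutrophils, for Hist2h2aa2. Added together they gave 348 and 262 CPM in monocytes, against 222 and 231 CPM in neutrophils, and the sum was not called (log2 0.43 ± 0.14, adjusted p = 0.0553, edgeR). On the other strand in M21, the antisense gene Gm20633 covers all 586 bases of Hist2h2aa1, and Gm20632 covers all 528 bases of Hist2h2aa2. Their part in these counts was not tested. On the same strand, exons of Gm20634 share 529 of the 586 bases of Hist2h2aa1. Gm20634 was at 7.50 and 6.09 CPM in monocytes, against 45.7 and 42.0 CPM in neutrophils. Gm20634 also covers all 1825 exonic bases of the H3 gene Hist2h3c1, so how many of its reads come from H2A is not known. With all of them added, the sum was 356 and 268 CPM in monocytes, against 267 and 273 CPM in neutrophils. The groups then overlapped, while the sum of the pair alone did not overlap. The 1 clustered gene called higher in monocytes is thus one whose sum with its copy had no call.

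**Figure D5:**
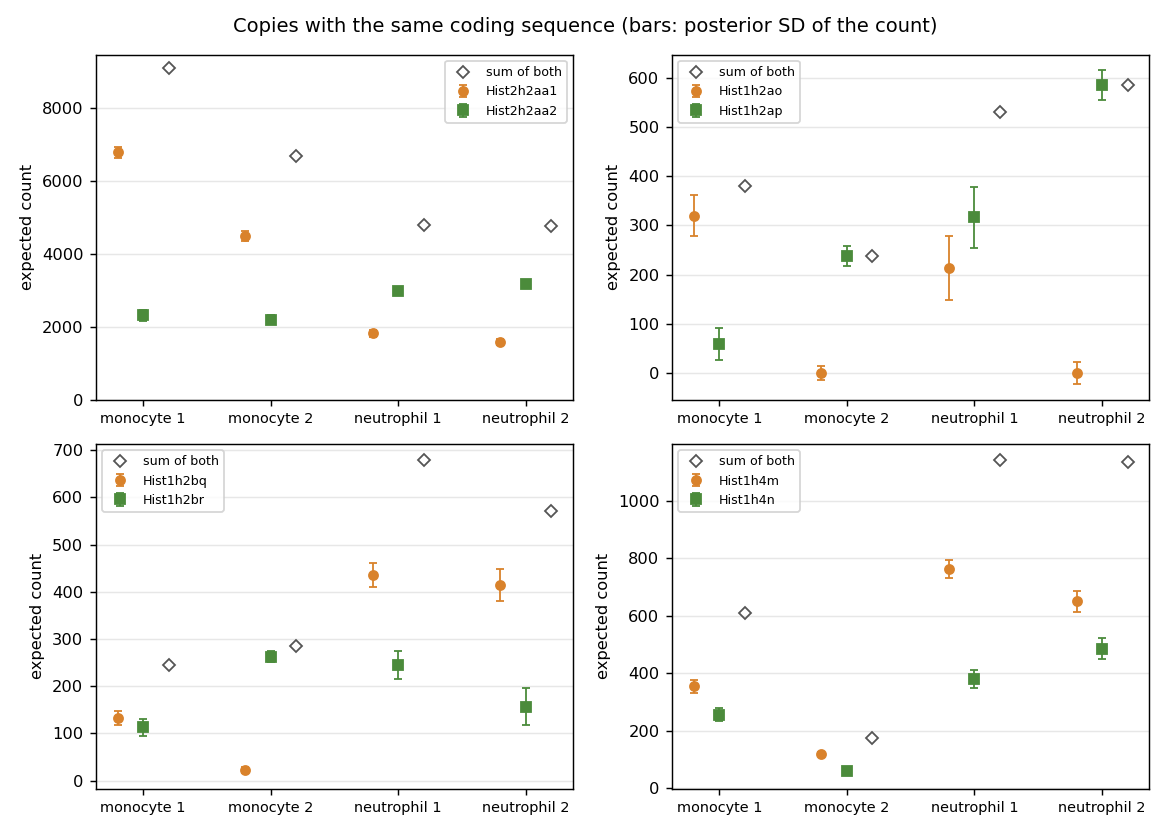
Expected counts of 4 pairs of genes with the same coding sequence in each library, monocytes left of neutrophils, with bars for RSEM's posterior SD and open diamonds for the sum of both. Hist2h2aa1 and Hist2h2aa2 change rank between monocytes and neutrophils, and Hist1h2ao is at 0 in 1 library of each group.

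Of the other 4 pairs 3 were called higher in neutrophils once summed. The fourth, Hist2h3c1 with Hist2h3c2, was at 0.632 and 0 CPM in monocytes, against 1.83 and 1.47 CPM in neutrophils, with no call for the sum (log2 -2.41 ± 1.65, adjusted p = 0.296, edgeR). Hist1h2ao had 320 and 0 expected counts in monocytes, against 213 and 0 in neutrophils, and Hist1h2ap 59.1 and 238 in monocytes, against 317 and 585 in neutrophils, neither called alone. Their sum was 14.5 and 9.31 CPM in monocytes, against 24.5 and 28.5 CPM in neutrophils, and was called (log2 -1.15 ± 0.26, adjusted p = 0.0168, edgeR). Hist1h2bq, called alone at log2 -2.75 ± 0.72 (adjusted p = 0.0282, edgeR), had 133 and 23.0 counts in monocytes, against 435 and 415 in neutrophils. With Hist1h2br the sum fell by 1.52 ± 0.19 (adjusted p = 0.00181, edgeR), a smaller fold with a narrower error. Hist1h4m had 354 and 117 counts in monocytes, against 762 and 650 in neutrophils (log2 -1.88 ± 0.48, adjusted p = 0.0256, edgeR). Its sum with Hist1h4n fell by 1.84 ± 0.52 (adjusted p = 0.0356, edgeR). Hist1h2bq and Hist1h4m both lost their own call without neutrophil replicate 1 (adjusted p = 0.0924 and 0.0753) or neutrophil replicate 2 (0.0919 and 0.0646).

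The gap between 2 libraries of a group, which also holds counting error and any difference between the samples, was often wider than the posterior SD. Of 49 tested clustered genes with a posterior SD above 0 in monocytes, 46 differed between the 2 monocyte libraries by more than 2 combined posterior SDs, with a median gap of 7.43. In neutrophils 32 of 50 did so, with a median of 2.89. Replacement variants showed this too, with 4 of 4 in monocytes (median 84.7) and 3 of 4 in neutrophils (median 11.1). The same count was not made over all tested genes. Hist1h2ad had 0 and 95.1 counts in monocytes, against 357 and 284 in neutrophils, and its log2 fold change of -3.02 ± 1.35 was not called (adjusted p = 0.129, edgeR). The log2 fold change of Hist1h2ad was -2.04 without monocyte replicate 1 and -11.4 without monocyte replicate 2. In such fits the remaining library is assumed to vary as those of the other group do. How many genes were called also depended on the library left out, among histone genes and among all tested genes.

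Clustered H2A and H2B genes often share a start region, and this arrangement, examined after the values were seen, allows 2 genes of 1 region to be set side by side. Facing away from each other at most 1000 bases apart were 12 pairs of histone genes, all of 1 H2A and 1 H2B gene, with 176 to 306 bases between their annotated starts. In 3 of these pairs the H2B gene was called higher in neutrophils and its H2A partner was not called: Hist1h2bc with Hist1h2ac (log2 -1.60 and -0.32), Hist1h2bq with Hist1h2ao (-2.75 and 0.32) and Hist2h2be with Hist2h2ac (-2.48 and -0.39). Of all 14 tested clustered H2B genes 4 were called higher in neutrophils (28.6%, beside 21.6% of all tested genes). For clustered H2A it was 1 of 15 (6.67%). Of the 10 tested H2A genes of these pairs 0 were called by edgeR, beside 42.3% of all tested genes in either direction. By edgeR 2 had an unadjusted p under 0.05. DESeq2 called 1 and limma 2, and their counts over all tested genes are given above with the clustered H3 genes. Whether partners differ from each other was not tested. Hist1h2ao has the same coding sequence as Hist1h2ap and had 0 counts in 1 library of each group, and the sum of these copies was called higher in neutrophils (log2 -1.15), as given above. Hist2h2ac was at 45 and 26.9 CPM in monocytes, against 43.5 and 50.9 CPM in neutrophils.

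The region between Hist2h2ac and Hist2h2be is shown because its 2 genes, 239 bases apart, had unlike folds. It is the RefSeq promoter of Hist2h2ac (GRCm38.p6, chr3:96220831-96221130, minus strand), with CCAAT and also TATAAA and the octamer ATTTGCAT in capitals on either strand, so that ATTGG and ATGCAAAT mark the other strand.
Hist2h2ac: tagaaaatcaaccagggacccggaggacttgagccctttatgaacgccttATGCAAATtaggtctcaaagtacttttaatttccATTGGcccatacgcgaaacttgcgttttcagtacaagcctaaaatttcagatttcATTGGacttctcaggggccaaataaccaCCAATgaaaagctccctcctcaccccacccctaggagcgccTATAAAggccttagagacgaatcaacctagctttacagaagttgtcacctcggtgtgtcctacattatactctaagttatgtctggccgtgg
Promoters of 59 clustered and 14 replacement genes matched the RefSeq table by Entrez gene identifier. CCAAT on either strand was present in 84.7% of clustered promoters, 71.4% of replacement promoters and 41.1% of all 27025 promoters of 300 bases in the table. TATAAA was present in 59.3% of clustered promoters and 7.14% of replacement promoters, against 15.7% of all. The octamer was present in 7 of 18 H2A and 5 of 13 H2B promoters and in 0 of the H1, H3 and H4 promoters, against 1.97% of all. CCAAT was present in every H1, H2A, H2B and H3 promoter matched but in 3 of 12 H4 promoters. A match describes letters in the window and not a site in use.

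Genes that make and clear histone RNA were also measured. Of 32 tested genes of histone mRNA processing and turnover, 9 were higher in monocytes (28.1%, beside 20.7% of all tested genes) and 5 higher in neutrophils (15.6%, beside 21.6%), with a median log2 fold change of 0.03. Slbp, the stem-loop binding protein, was at 116 and 112 CPM in monocytes, against 63.0 and 60.6 CPM in neutrophils (log2 0.88 ± 0.09, adjusted p = 0.000993, edgeR). Eri1, the exonuclease that trims the stem-loop and starts decay of histone RNA, was at 112 and 105 CPM in monocytes, against 41.8 and 42.7 CPM in neutrophils (log2 1.36 ± 0.10, adjusted p = 0.000313, edgeR). Both groups were well separated in each. Mif4gd, the partner of stem-loop binding protein in translation, went the other way, with 17.4 and 20.1 CPM in monocytes, against 69.1 and 69.1 CPM in neutrophils (log2 -1.88 ± 0.14, adjusted p = 0.000304, edgeR). The greatest folds in monocytes belonged to Snrpe (log2 1.95 ± 0.17), Snrpf (1.70 ± 0.25) and Snrpb (1.69 ± 0.12), Sm proteins that the U7 particle shares with spliceosomal particles. Sympk, a scaffold of the cleavage complex, fell by 0.51 ± 0.12, and Tut7, which adds uridines to RNA ends, by 0.48 ± 0.10. Npat, the activator of clustered histone promoters, and the U7 protein Lsm11 were not called (log2 0.28 ± 0.14 and 0.00 ± 0.32).

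Of 33 histone chaperones and exchange factors, 10 were higher in monocytes (30.3%, beside 20.7% of all tested genes) and 7 higher in neutrophils (21.2%, beside 21.6%), with a median of 0.16. Higher in monocytes were Spty2d1, an H3 and H4 chaperone (log2 1.30 ± 0.12), Rbbp7 (0.96 ± 0.24) and Nasp, which keeps the reserve of soluble H3 and H4 (0.87 ± 0.10). Higher in neutrophils were Srcap, which inserts H2A.Z (-1.27 ± 0.16), Dnajc9 (-1.18 ± 0.16) and Cabin1, of the complex that deposits H3.3 (-0.99 ± 0.12). H2afz and Srcap thus differed in opposite directions. Slbp, Eri1, Npat and Lsm11 were named for their role after their values were seen, and the other genes of these lists by the largest called folds.

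Clustered histone RNA is usual in dividing cells, so genes of S phase and cell division are given beside it. Of 35 tested, 6 were higher in monocytes (17.1%, beside 20.7% of all tested genes) and 1 higher in neutrophils (2.86%, beside 21.6%), with a median log2 fold change of 0.31, and their summed CPM was 530 and 521 in monocytes, against 394 and 365 in neutrophils. Top2a was at 27.6 and 30.9 CPM in monocytes, against 5.59 and 7.49 CPM in neutrophils. Rrm2 was at 4.22 and 5.25 CPM in monocytes, against 0.508 and 1.46 CPM in neutrophils, and Ccna2 at 1.38 and 1.88 CPM in monocytes, against 0.0924 and 0.146 CPM in neutrophils. Ccne1, the cyclin of entry to S phase, was the one gene higher in neutrophils, with 0.997 and 1.41 CPM in monocytes, against 3.28 and 6.13 CPM in neutrophils.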

How the data were processed

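Total RNA of 2 monocyte and 2 neutrophil libraries was measured, grouped by the labels' descriptions. The authors aligned reads to mm10 with STAR, after bcl2fastq, and estimated genes per library with RSEM on GENCODE M4 models; TPM in the deposited files depends on short structural RNAs, which carried 83.5% to 88.1% of it, so the deposited RSEM expected counts were used for tests. Posterior mean counts, posterior SDs and lengths, also deposited, served the checks of read assignment. Each file held 69690 entries, and 26344 that are no gene (under 0.001% of counts) were left out. Names and coordinates came from GENCODE M21 (GRCm38) by identifier, matching 98.0%. Counts were rounded, filtered (filterByExpr), TMM-scaled (0.994 to 1.006) and fitted with edgeR 4.0.16 (glmQLFit, robust). A level is CPM per kilobase of effective length. Limma 3.58.1 used log2(TPM + 1), and DESeq2 1.42.0, length offsets, other scalings and filters, merged copies and single libraries left out were alternatives. Named were all counted replacement variants, the 3 highest clustered genes per family by level, the 6 largest called folds per direction and, from other lists, 3 per direction, each with 20 counts in both libraries of the higher group. Tests were run on simulated data first. Proteins were not analysed here. The histone genes, gene lists and alternatives were chosen with earlier results of these data known.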

Additional observations from a re-analysis of the deposited data

How the results depend on the processing

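No paired analysis was possible because the replicate numbers follow deposit order only. Of the results above, 18 histone genes were called in all, and alternatives moved counts as follows. A test against a 2-fold change left 9 calls, with 0 clustered genes higher in monocytes, 6 higher in neutrophils, 3 replacement variants higher in monocytes and 0 higher in neutrophils. Merging copies, chosen after seeing the data, left 0 clustered genes higher in monocytes, as Hist2h2aa1 entered a sum. With limma on log2(TPM + 1), 2 clustered genes were higher in monocytes, 3 replacement variants were higher in monocytes, 0 replacement variants were higher in neutrophils, and H2afv had a log2 fold change of -0.082 (reversed). With the length offset these were 3 and 0 replacement variants, and H2afv was at -0.13 (reversed). With no filter on low counts, 2 clustered genes were higher in monocytes and 0 replacement variants higher in neutrophils, which was also 0 by DESeq2 and with at least 10 CPM in 2 libraries.

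Over the fits without 1 library, all calls ranged over 11 to 36, clustered genes higher in monocytes over 1 to 4 and higher in neutrophils over 7 to 26, and replacement variants higher in monocytes over 3 to 6 and higher in neutrophils over 0 to 1. The high ends came without a monocyte library and the low ends without a neutrophil library. A lone library is assumed to vary like the other group. Among the named genes, H3f3a passed the threshold under 7 alternatives, with adjusted p from 0.00255 to 0.0490. The clustered share of histone counts was 49.3% in monocytes and 64.3% in neutrophils per kilobase, and 27.1% in monocytes and 44.0% in neutrophils without members whose posterior CV passed 10%. Clustered H3 genes and replacement linker histones each had under 1000 counts in all per library, which limits their precision.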
